A study of Mus musculus with 8 samples.

Results

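The 6 genes *Igll1*, *Vpreb1*, *Vpreb2*, *Vpreb3*, *Cd79a* and *Cd79b* encode components or partners of the pre-B cell receptor (pre-BCR). They were taken from a fixed list of symbols, matched to Entrez Gene identifiers, and make up 6 of the 27179 genes of the deposited count table. RNA was sequenced from sorted bone marrow cells of mice aged 7 to 10 weeks, in 4 groups of 2 libraries. RNA came from 2 mice of each genotype, so the 3 control stages may share mice. Pre-proB, proB and preB cells came from Ergfl/fl mice, which carried floxed *Erg* alleles and no Cre, and a further pre-proB group came from Rag1CreT/+;ErgΔ/Δ mice, called Erg-deficient here. The gates took B220+ cells without surface IgM, IgD, NK1.1 or CD11c, and then CD43+CD24- (pre-proB), CD43+CD24+ (proB) or CD43-CD24+ (preB) cells. *Rag1Cre* deletes from the common lymphoid progenitor stage onwards, and because the controls carried no Cre allele, effects of Cre and of *Erg* loss cannot be told apart. The deleted allele keeps the *Erg* exons outside the floxed part.

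The pre-BCR forms when a newly rearranged immunoglobulin μ heavy chain pairs with the surrogate light chain, a dimer of λ5 (*Igll1*) and a VpreB protein (*Vpreb1* or *Vpreb2*). The *Cd79a* and *Cd79b* products, Igα and Igβ, form the signalling unit of both the pre-BCR and the mature receptor, so they stay in use after a conventional light chain has replaced the surrogate one. *Vpreb3* encodes a related small protein that binds μ chains inside the cell and is not part of the surface surrogate light chain.

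In GRCm38, *Igll1* lies on chromosome 16 at 16860671 to 16863985 on the minus strand, with 3 exons. *Vpreb1* (16868401 to 16869255, minus strand, 2 exons) follows it after 4.42 kb, and *Vpreb2* (17979445 to 17981274, plus strand, 2 exons) lies 1.11 Mb further along the same chromosome. *Vpreb3* lies on chromosome 10 (75943024 to 75949657, plus strand), *Cd79a* on chromosome 7 (24897497 to 24901858, plus strand) and *Cd79b* on chromosome 11 (106311341 to 106314562, minus strand). An annotated pseudogene, *Gm16221*, overlaps *Vpreb3*.

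*Vpreb1* and *Vpreb2* are near-identical copies, so their counts may not be fully separate. Their coding sequences match at 417 of 426 aligned bases (97.9%), and 97 of the 667 possible 100-base read windows of *Vpreb1* (14.5%) occur unchanged in *Vpreb2*. No 100-base window of *Igll1*, *Vpreb3* or *Cd79b* occurs in another gene's annotated transcripts, and 24 of the 1358 windows of *Cd79a* occur in *Gm32220*. The first 150 coding bases of the pair are shown 5′ to 3′ to show how sparse the differences are, with the differing bases in capitals.
Vpreb1: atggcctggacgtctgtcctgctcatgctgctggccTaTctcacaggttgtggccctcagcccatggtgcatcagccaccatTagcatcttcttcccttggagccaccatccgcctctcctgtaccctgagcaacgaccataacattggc
Vpreb2: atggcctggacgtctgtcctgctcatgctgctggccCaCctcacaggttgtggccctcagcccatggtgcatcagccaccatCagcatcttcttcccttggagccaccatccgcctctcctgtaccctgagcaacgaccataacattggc

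Promoter windows ran from 250 bases before to 50 after a listed transcript start, 300 bases in all. RefSeq (GRCm38.p6) gave them for 5 of the 6 genes. They are shown because *Igll1*, *Vpreb1* and *Vpreb2* all fell from proB to preB cells. The part of these sequences in that fall was not tested. *Cd79b* had no listed window. For *Vpreb2* and *Vpreb3* that start lies inside the gene span given above, which also covers transcripts that begin upstream of it. Capitals mark matches, on either strand, to AGGAAG (named for ETS factors), CAGGTG (E proteins), the EBF palindrome (TCCC and GGGA with 2 bases between), ATGCAAAT (octamer factors), TGTGGT (RUNX factors) or TGGGAA (Ikaros factors). The windows lie at chr16:16863936-16864235 (*Igll1*, minus strand), chr16:16869206-16869505 (*Vpreb1*, minus strand), chr16:17980315-17980614 (*Vpreb2*, plus strand), chr10:75948050-75948349 (*Vpreb3*, plus strand) and chr7:24897247-24897546 (*Cd79a*, plus strand).
Igll1: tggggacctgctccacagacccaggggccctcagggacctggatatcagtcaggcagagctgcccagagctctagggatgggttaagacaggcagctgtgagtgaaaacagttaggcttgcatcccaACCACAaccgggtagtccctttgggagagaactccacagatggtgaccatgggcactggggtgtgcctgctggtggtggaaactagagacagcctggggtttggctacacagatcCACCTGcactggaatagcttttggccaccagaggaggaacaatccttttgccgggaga
Vpreb1: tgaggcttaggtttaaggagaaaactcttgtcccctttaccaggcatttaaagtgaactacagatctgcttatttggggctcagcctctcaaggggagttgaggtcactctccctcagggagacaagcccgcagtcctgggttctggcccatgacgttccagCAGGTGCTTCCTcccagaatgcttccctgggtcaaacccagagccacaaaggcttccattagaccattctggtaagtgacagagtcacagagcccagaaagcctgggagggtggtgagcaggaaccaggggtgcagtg
Vpreb2: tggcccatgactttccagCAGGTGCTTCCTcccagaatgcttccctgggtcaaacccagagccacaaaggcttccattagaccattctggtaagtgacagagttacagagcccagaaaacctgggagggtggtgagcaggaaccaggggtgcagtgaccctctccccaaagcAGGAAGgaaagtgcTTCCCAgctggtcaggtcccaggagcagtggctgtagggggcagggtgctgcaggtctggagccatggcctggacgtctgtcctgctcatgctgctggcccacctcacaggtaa
Vpreb3: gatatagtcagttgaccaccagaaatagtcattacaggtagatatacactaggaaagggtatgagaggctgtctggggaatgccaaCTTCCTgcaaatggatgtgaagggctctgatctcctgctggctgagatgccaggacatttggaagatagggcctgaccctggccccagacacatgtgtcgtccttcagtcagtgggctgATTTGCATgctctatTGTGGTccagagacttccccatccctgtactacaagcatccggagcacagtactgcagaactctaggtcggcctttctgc
Cd79a: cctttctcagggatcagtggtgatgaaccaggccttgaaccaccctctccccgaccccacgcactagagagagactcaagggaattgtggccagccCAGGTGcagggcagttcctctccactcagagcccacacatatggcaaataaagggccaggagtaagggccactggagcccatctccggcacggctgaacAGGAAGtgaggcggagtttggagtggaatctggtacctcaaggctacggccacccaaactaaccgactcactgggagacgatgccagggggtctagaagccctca

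In both *Vpreb1* and *Vpreb2* a CAGGTG match is followed directly by AGGAAG on the other strand. These matches sit in a stretch of 156 bases that the windows share at 153 positions, although the starts used for the windows differ by 144 bases relative to it. CAGGTG matched 4 of the 5 windows and 20.2% of all 32851 promoter windows of this length. AGGAAG also matched 4 of the 5 and 35.4% of all windows. *Igll1* had CAGGTG from -8 to -3 and TGTGGT but no AGGAAG, and the ATGCAAAT match from -45 to -38 was in *Vpreb3*, against 1.74% of all windows. The EBF palindrome, found in 0.904% of all windows, matched none of the 5. Only exact matches to these strings were sought, so the lack of a match does not show that a window has no site for that factor. TGTGGT matched 2 of the 5 and 16.8% of all windows, and TGGGAA 1 of the 5, *Vpreb2*, and 25.6%.

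All 6 genes rose from pre-proB to proB cells and then parted. From proB to preB cells *Igll1*, *Vpreb1* and *Vpreb2* fell 5.04- to 6.10-fold while *Cd79b* rose 2.44-fold and *Vpreb3* and *Cd79a* were at 143% and 168% of their proB mean. In Erg-deficient pre-proB cells 5 of the 6 were nearly lost and *Cd79b* was at 48.4% of the control mean. Levels are given as CPM (counts scaled to a common library size after TMM normalisation) in replicates 1 and 2, and as RPKM (CPM per kilobase of exon) where genes are compared with each other.

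**Figure D1:**
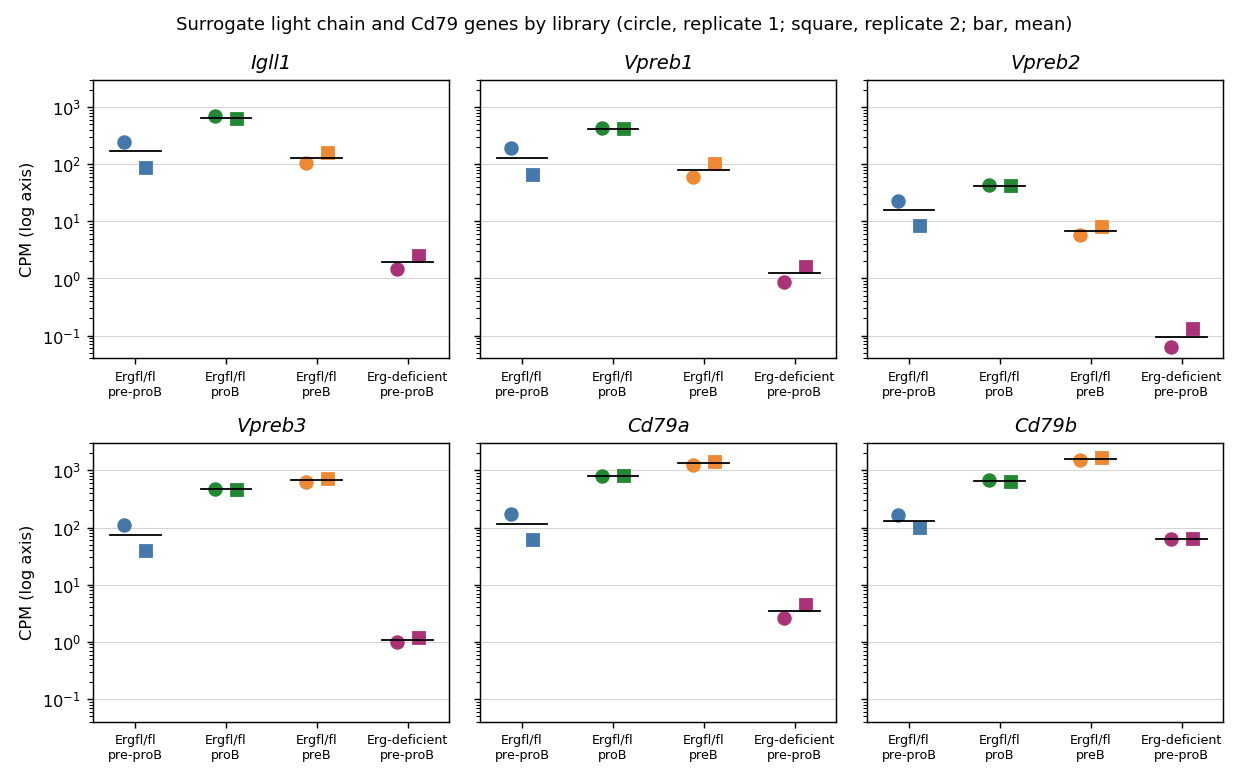
CPM of the 6 genes in each of the 8 libraries on a log axis, by group, with circles for replicate 1, squares for replicate 2 and a bar for the mean of 2. *Igll1*, *Vpreb1* and *Vpreb2* peak in proB cells, whereas *Vpreb3*, *Cd79a* and *Cd79b* are highest in preB cells, and only *Cd79b* stays at 63.4 and 64.1 CPM in the Erg-deficient libraries.

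The control pre-proB libraries stood apart from each other. Replicate 1 exceeded replicate 2 by 2.94-fold for *Igll1*, 2.93-fold for *Vpreb1*, 2.69-fold for *Vpreb2*, 2.80-fold for *Vpreb3* and 2.82-fold for *Cd79a*, but by 1.68-fold for *Cd79b*. The same ratio was 2.77 for *Ebf1*, 3.45 for *Pax5* and 2.73 for *Erg*, and 1.09 for *Ighm*. Summed plasmacytoid dendritic-like marker genes (6 of 6 detected) were at 7238 to 8605 CPM in the 4 pre-proB libraries and 40.9 to 141 CPM in proB and preB libraries, and the T-like and NK-like genes summed to 621 to 1427 and 195 to 348 CPM in the pre-proB libraries. *Cd4* (474 to 1215 CPM) and *Klrd1* (164 to 220 CPM) made up most of the last 2 sums, while *Cd3d*, *Cd3e* and *Cd3g*, the defining T cell genes, were at 4.75 to 6.51 CPM. No listed marker gene was at 0 in any library. The part of other cell types in the differences below was not tested, and in sorted populations fewer cells of a type and less RNA per cell cannot be told apart.

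The first comparison asked how the genes changed on entry into the proB stage. *Igll1* measured 249 and 84.7 CPM in pre-proB libraries and 685 and 622 CPM in proB libraries, a 4.02-fold rise (log2 fold change 2.01 ± 0.41 SE, edgeR adjusted p = 0.00198). *Vpreb1* went from 188 and 64.4 to 436 and 404 CPM (1.77 ± 0.41, adjusted p = 0.00399), and *Vpreb2* from 22.6 and 8.39 to 42.8 and 41.4 CPM (1.48 ± 0.34, adjusted p = 0.00368). For each of the 3, both proB libraries lay above both pre-proB libraries, and the replicates differed far more in pre-proB than in proB cells.

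The other 3 genes rose as well. *Vpreb3* went from 109 and 39.0 to 480 and 458 CPM (2.70 ± 0.36, adjusted p = 0.000165). *Cd79a* went from 169 and 60.01 to 784 and 791 CPM (2.82 ± 0.38, adjusted p = 0.000152). *Cd79b* went from 165 and 98.4 to 670 and 623 CPM (2.33 ± 0.20, adjusted p = 8.95e-06). All 6 were called higher, beside 36.2% of the 13650 genes tested that were called higher, 36.8% called lower and 73.0% called in either direction. By size the 6 folds were above those of 90.1% to 97.8% of the genes tested, and with robust estimation of the spread 3 of the 6, the surrogate light chain genes, missed the threshold (adjusted p = 0.0656 to 0.0879).

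The switch from proB to preB cells, which follows a successful pre-BCR signal, separated the genes. *Igll1* fell from 685 and 622 CPM to 103 and 155 CPM, or to 15.8% and 23.7% of the proB mean (log2 fold change -2.33 ± 0.41 SE, edgeR adjusted p = 0.00147). *Vpreb1* fell to 60.4 and 98.7 CPM (-2.39 ± 0.42, adjusted p = 0.00141), and *Vpreb2* to 5.82 and 7.89 CPM (-2.61 ± 0.37, adjusted p = 0.000421). Both preB libraries were far below both proB libraries for each of the 3, and preB replicate 2 was the higher preB library by 1.36- to 1.63-fold.

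Genes outside the surrogate light chain did not follow. *Cd79b*, the Igβ gene, rose from 670 and 623 CPM to 1517 and 1615 CPM (1.28 ± 0.19, adjusted p = 0.000556). *Cd79a* measured 1247 and 1396 CPM in preB libraries (0.75 ± 0.35, adjusted p = 0.0922) and *Vpreb3* 633 and 706 CPM (0.52 ± 0.33, adjusted p = 0.209), so neither passed the threshold although both preB libraries lay above both proB libraries for each. Of the 6 genes, 1 was called higher and 3 lower, beside 29.0% and 29.9% of the 13650 genes tested (58.9% in either direction). In all, 439 tested genes had a lower log2 fold change than *Igll1*, 409 lower than *Vpreb1* and 304 lower than *Vpreb2*.

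Those 2 calls depend on which libraries enter the fit. In a fit of the 4 proB and preB libraries alone, chosen after seeing the data, *Vpreb3* (log2 fold change 0.51, adjusted p = 0.000295) and *Cd79a* (0.74, adjusted p = 3.34e-05) passed, and all 6 genes were called, 3 higher and 3 lower. Both also passed without pre-proB replicate 1 (adjusted p = 0.000323 and 3.84e-05) or without replicate 2 (0.000282 and 3.46e-05). With robust estimation *Igll1* (adjusted p = 0.0569) and *Vpreb1* (0.0562) missed the threshold, and 2 of the 6 were called.

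**Figure D2:**
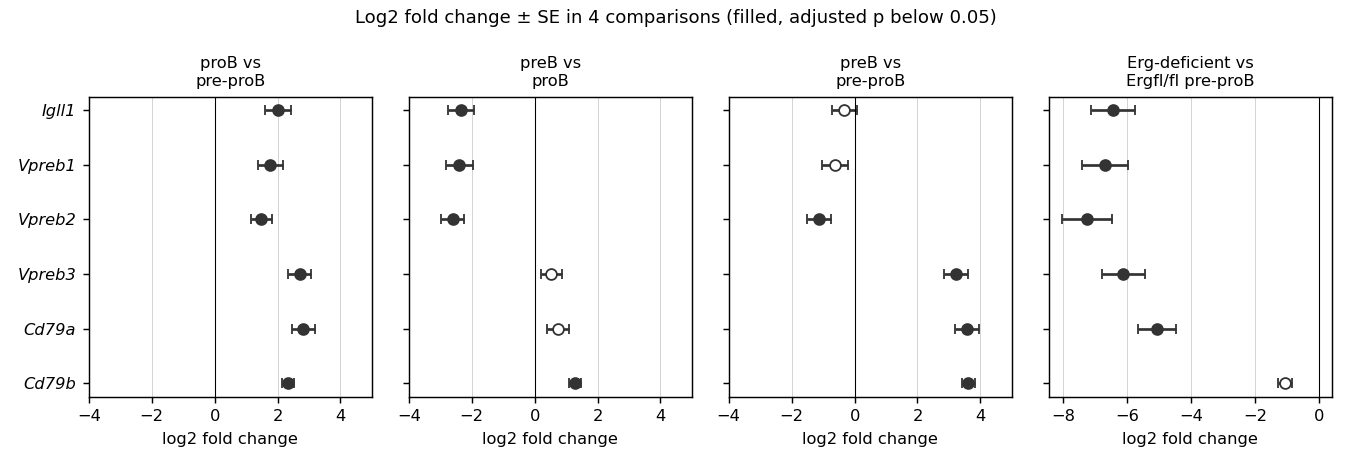
Log2 fold change (points) with its standard error (bars) for the 6 genes in 4 comparisons, filled where the edgeR adjusted p was below 0.05 and open otherwise; the Erg-deficient panel has its own x axis. In preB against proB cells *Igll1*, *Vpreb1* and *Vpreb2* lie between -2.33 and -2.61 while the other 3 lie between 0.52 and 1.28.

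Set against the starting stage, the net change over both steps differed by gene. *Cd79b* was 12.3-fold, *Cd79a* 11.9-fold and *Vpreb3* 9.32-fold higher in preB than in pre-proB cells (adjusted p = 8.66e-07, 4.54e-05 and 6.72e-05). *Vpreb2* was lower (log2 fold change -1.12 ± 0.39, adjusted p = 0.0289), whereas *Igll1* (-0.33 ± 0.40, adjusted p = 0.489) and *Vpreb1* (-0.62 ± 0.41, adjusted p = 0.210) did not pass the threshold. So 3 of the 6 were called higher, beside 36.5% of all tested genes, and 1 lower, beside 34.1% (70.7% in either direction). The surrogate light chain values turn on the pre-proB replicate used. Without replicate 1 the log2 fold changes of *Igll1*, *Vpreb1* and *Vpreb2* were 0.58, 0.28 and -0.31 (adjusted p = 0.0291, 0.301 and 0.164), and without replicate 2 they were -0.94, -1.23 and -1.71 (0.00160, 0.000643 and 1.05e-05).

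Per kilobase of exon, the order of the genes turned over between stages. In proB cells *Igll1* (751 ± 51.8 RPKM, SD, n = 2) and *Vpreb3* (750 ± 24.7) were the most abundant and did not differ beyond their spread. *Vpreb1* (548 ± 28.8), *Cd79b* (541 ± 27.6) and *Cd79a* (540 ± 3.04) followed, again within their spread, and *Vpreb2* was at 55.5 ± 1.32 RPKM. In preB cells the order was *Cd79b* (1310 ± 57.8), *Vpreb3* (1071 ± 83.2), *Cd79a* (907 ± 72.4), *Igll1* (148 ± 42.1), *Vpreb1* (104 ± 35.4) and *Vpreb2* (9.03 ± 1.93). There the libraries of *Igll1* and *Vpreb1* overlapped and those of the other neighbouring pairs did not. Within a library, *Igll1* was the higher of the 2 in both, at 1.50 and 1.38 times *Vpreb1*.

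In control pre-proB cells the order began with *Igll1* (192 ± 134 RPKM) and *Vpreb1* (165 ± 114), ahead of *Vpreb3* (119 ± 79.7), *Cd79b* (110 ± 39.5), *Cd79a* (78.6 ± 52.9) and *Vpreb2* (20.4 ± 13.2). The libraries of *Cd79a* and *Vpreb2* did not overlap, and those of every other pair of neighbours in that order did. Within each library the order was the same except for *Vpreb3* and *Cd79b*. These were at 175 and 138 RPKM in replicate 1 and at 62.5 and 82.3 RPKM in replicate 2. In Erg-deficient cells *Cd79b* (53.4 ± 0.402) stood above *Cd79a* (2.39 ± 0.887), *Igll1* (2.24 ± 0.826), *Vpreb3* (1.73 ± 0.184) and *Vpreb1* (1.62 ± 0.682), which overlapped, and *Vpreb2* (0.126 ± 0.0621). RPKM used the exons of RefSeq-linked transcripts, so ratios between genes carry any error in those lengths, while their change between libraries does not.

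Ratios within a library do not depend on its depth. *Igll1* to *Vpreb1* stayed between 1.16 and 1.50 in the 6 Ergfl/fl libraries, the lowest values in pre-proB cells. *Vpreb1* exceeded *Vpreb2* by 7.60 to 8.26 times in pre-proB, 9.68 to 10.1 times in proB and 10.3 to 12.4 times in preB libraries. The counting intervals of pre-proB replicate 1 (7.39 to 9.25) and preB replicate 1 (8.38 to 12.8) overlapped. How reads matching both copies were counted is not known.

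Between the surrogate light chain and the signalling chain the ratio did move. *Igll1* to *Cd79a* started at 2.47 and 2.36 in pre-proB cells, measured 1.46 and 1.32 at the proB stage and ended at 0.138 and 0.186 in preB cells. *Vpreb3* to *Igll1* ran the other way, from 0.612 and 0.642 through 0.975 and 1.03 to 8.56 and 6.36. *Vpreb3* to *Cd79a* changed least of these, from 1.51 and 1.52 in pre-proB through 1.43 and 1.35 in proB to 1.18 in both preB libraries.

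*Cd79a* and *Cd79b* encode chains that pair in the receptor. Their ratio was 0.840 and 0.5003 in pre-proB cells, near equality at the proB stage with 0.961 and 1.04, and 0.674 and 0.709 in preB cells. These ratios are descriptions with no test, and their intervals cover counting error only.

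**Figure D3:**
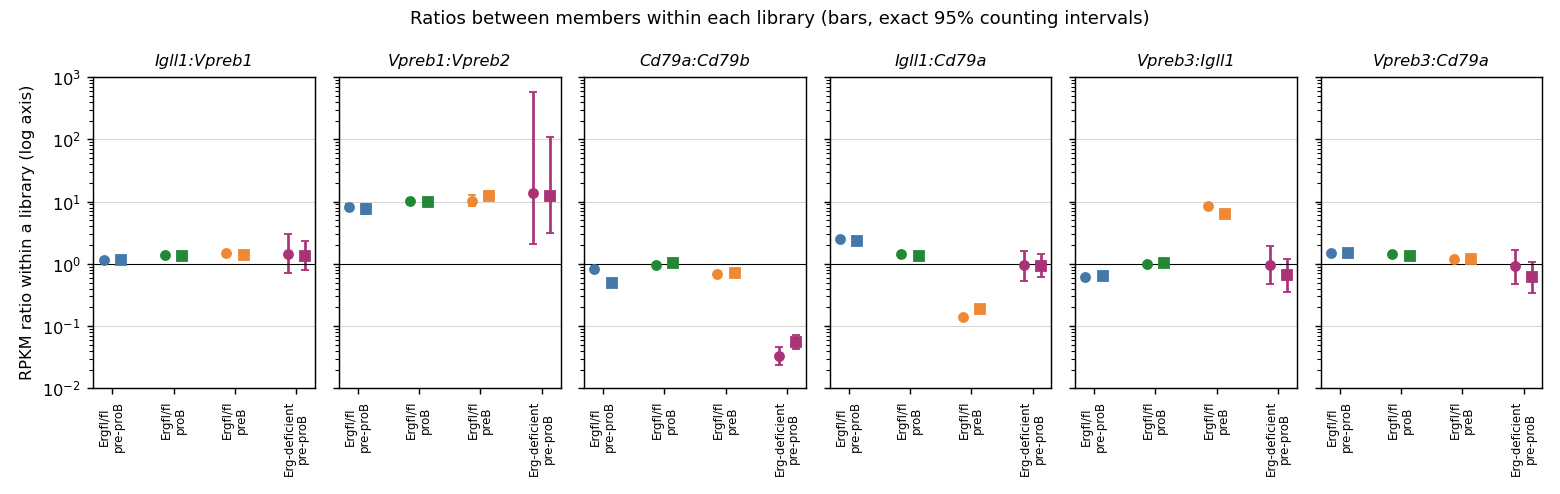
RPKM ratio between pairs of the genes within each library on a log axis, with circles for replicate 1, squares for replicate 2 and bars for exact 95% counting intervals, by group. *Igll1* to *Vpreb1* is nearly level across stages, *Igll1* to *Cd79a* falls to 0.138 and 0.186 in preB cells, and *Cd79a* to *Cd79b* drops to 0.0331 and 0.0562 in Erg-deficient cells.

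The targeted gene itself was described first. Its counts cover the whole gene, including exons that the deleted allele keeps, so they do not measure the deletion. *Erg* measured 69.1 and 25.4 CPM in control and 2.50 and 2.58 CPM in Erg-deficient pre-proB libraries (log2 fold change -4.23 ± 0.55 SE, edgeR adjusted p = 0.0250). All 3 surrogate light chain genes nearly vanished with it. *Igll1* fell from 249 and 84.7 CPM to 1.44 and 2.45 CPM, from 3880 and 1393 counts to 23 and 38 (-6.44 ± 0.68, adjusted p = 0.0178).

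*Vpreb1* fell from 188 and 64.4 CPM to 0.875 and 1.61 CPM (-6.68 ± 0.72, adjusted p = 0.0178). *Vpreb2* was left with 1 and 2 counts, against 352 and 138 in controls (-7.25 ± 0.79, adjusted p = 0.0178). From the summed counts, *Vpreb2* was at 0.623% of the control level, with an exact 95% counting interval of 0.128% to 1.83%, and some of these 3 counts could come from reads that *Vpreb1* shares. For comparison *Igll1* was at 1.18% (0.899% to 1.51%) and *Vpreb1* at 0.993% (0.705% to 1.36%), and the 3 intervals overlapped.

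The remaining genes differed in how much was left. *Vpreb3* fell from 109 and 39.0 CPM to 1.00 and 1.16 CPM (-6.11 ± 0.68, adjusted p = 0.0182), or 1.47% of control (1.02% to 2.07%). *Cd79a* fell from 169 and 60.01 CPM to 2.56 and 4.39 CPM (-5.06 ± 0.60, adjusted p = 0.0214), or 3.06% (2.51% to 3.71%). *Cd79b* measured 63.4 and 64.1 CPM against 165 and 98.4 CPM (-1.06 ± 0.23, adjusted p = 0.0922) and did not pass the threshold, although both Erg-deficient libraries lay below both controls, at 64.5% and 65.2% of the lower one.

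In all, 5 of the 6 genes were called lower, beside 0.946% of the 13005 genes tested that were called lower, 0.215% called higher and 1.16% called in either direction. Between 62 and 117 tested genes had a lower log2 fold change than these 5, and 469 had a lower one than *Cd79b*. Within the Erg-deficient libraries *Cd79a* to *Cd79b* was 0.0331 (95% counting interval 0.0236 to 0.0453) and 0.0562 (0.0433 to 0.0718), below the 0.840 and 0.5003 of the controls. *Igll1* to *Vpreb1* was 1.45 (0.713 to 3.04) and 1.34 (0.787 to 2.31), with intervals that include the control values.

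The calls depend on the libraries and tool used. Without Erg-deficient replicate 1 or replicate 2, edgeR called 0 of the 6 (lowest adjusted p = 0.180 and 0.159), with all 6 at an unadjusted p below 0.05. Limma-voom also called 0 (lowest adjusted p = 0.177, 6 of 6 at an unadjusted p below 0.05), as did robust estimation (0.193, 5 of 6), whereas DESeq2 called 5, and *Cd79b* was called in the fit of all 8 libraries (adjusted p = 0.0219) and without either control library (0.0135 and 2.67e-05). By size, *Igll1* was at -5.45 without control replicate 1 and at -7.03 without replicate 2, and *Cd79b* at -0.63 and -1.41.

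**Figure D4:**
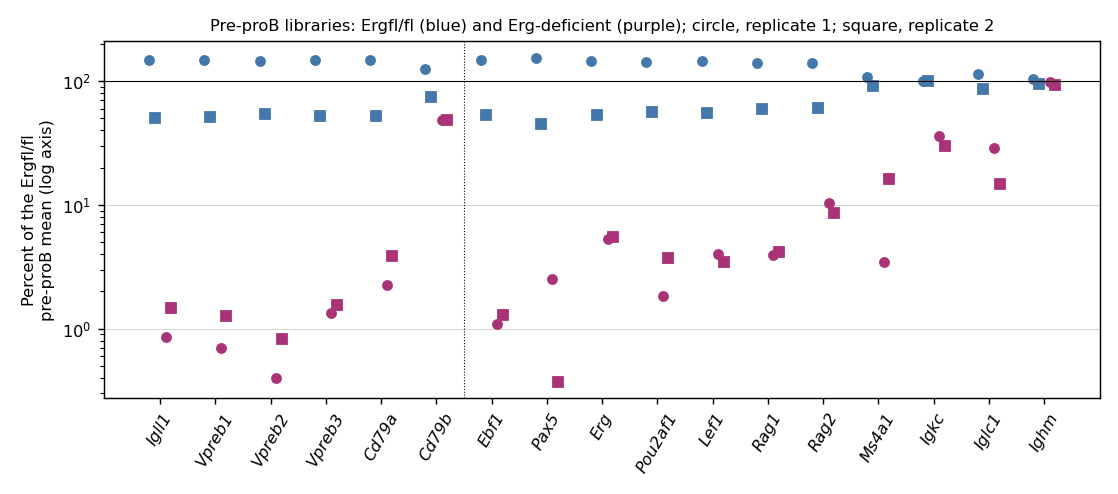
Level in each pre-proB library as a percentage of the Ergfl/fl pre-proB mean on a log axis, with blue for Ergfl/fl and purple for Erg-deficient libraries, circles for replicate 1 and squares for replicate 2; the 6 genes are left of the dotted line and other named genes right of it. *Cd79b* stays at 48.2% and 48.7% of the mean while the other 5 lie at or under 3.83%.

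Other genes of the pathway were described from fixed lists. Of 18 pre-BCR signalling genes, 12 were higher and 2 lower in preB than in proB cells, beside 29.0% and 29.9% of all genes tested, with a median log2 fold change of 0.38 against -0.000449 over all genes. *Syk*, the kinase that binds the phosphorylated Igα and Igβ tails, rose from 905 and 819 CPM to 2259 and 2122 CPM (1.35 ± 0.08, adjusted p = 5.97e-06), and *Lyn* (1.17), *Blk* (0.83) and the co-receptor *Cd72* (1.20) rose as well. *Ighm*, the μ heavy chain gene, rose by 1.06 (adjusted p = 1.91e-05). All 4 light chain constant genes, whose products replace the surrogate light chain, were higher in preB cells: *Iglc3* by 2.47, *Iglc1* by 1.70, *Iglc2* by 1.24 and *Igkc* by 0.84 on the log2 scale. The call of *Iglc2* was lost in 5 of 18 alternative fits, and its proB libraries stood apart at 105 and 48.7 CPM.

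From pre-proB to proB cells the signalling list was split, with 7 genes higher and 7 lower of 18, shares near the 36.2% and 36.8% of all genes tested (median 0.12 against 0.00401). *Blk* (1.60) and the inhibitory receptor *Cd22* (2.18) rose while the kinase gene *Fyn* (-3.27) fell. In Erg-deficient cells 1 of the 18 was called, lower, and the median over the list was -0.04 against 0.01 over all genes tested. *Cd22* (-0.53, adjusted p = 0.0764), *Blk* (-0.30, 0.121), *Inpp5d* (-0.21, 0.315) and *Ighm* (-0.07, 0.784) did not pass.

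Of 20 transcription factors of early B cells, 16 were higher and 3 lower in proB than in pre-proB cells, beside 36.2% and 36.8% of all genes tested, with a median of 1.59 against 0.00401. *Ebf1* (2.69), *Pax5* (3.34), *Ikzf3* (3.47), *Irf4* (2.89) and *Myc* (3.34) rose, and *Irf8* (-4.16) fell. *Erg* itself rose to 144 and 127 CPM in proB cells (1.56 ± 0.35, adjusted p = 0.00360) and fell to 19.6 and 28.7 CPM in preB cells (-2.48 ± 0.37, adjusted p = 0.000623). In preB cells *Myc* fell by 2.97, while *Spib* (1.67), *Ikzf3* (1.40) and *Tcf12* (0.68) rose. *Ebf1* was at 250 and 253 CPM in proB and 287 and 315 CPM in preB libraries (0.27 ± 0.30, adjusted p = 0.476), and *Pax5* at 172 and 169 and then 248 CPM in both (0.55 ± 0.30, adjusted p = 0.146). Over the stages *Erg* and *Myc* were highest in proB cells, as *Igll1* was, and the preB libraries of *Ebf1* and *Pax5* lay above their proB libraries.

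In Erg-deficient cells 7 of the 20 factors were lower and none higher, beside 0.946% and 0.215% of all genes tested. The 7 include *Erg*, the gene targeted in these mice. *Ebf1* fell from 59.1 and 21.3 CPM to 0.438 and 0.517 CPM (-6.39 ± 0.70, adjusted p = 0.0178) and *Pax5* from 26.8 and 7.78 CPM to 0.438 and 0.0646 CPM (-6.06 ± 0.88, adjusted p = 0.0356), with 1 count in the lower library. *Pou2af1* (-5.20), a coactivator of octamer factors, and *Lef1* (-4.75) were also lower. The recombinase genes *Rag1* (-4.63) and *Rag2* (-3.40) and the surface marker gene *Ms4a1* (-3.36) were the stage markers called. *Igkc* (-1.62, adjusted p = 0.00296) and *Iglc1* (-2.20, 0.0303) were lower, and *Iglc2* (-1.20, 0.393) and *Iglc3* (0.33, 0.0741) did not pass. Most of these calls depended on the fit, as those of the members did. Of 14 alternative fits, *Ebf1* lost its call in 4 and *Pax5* in 5. Of 16, *Pou2af1*, *Lef1*, *Rag1* and *Rag2* each lost theirs in 4 and *Ms4a1* in 5. *Iglc1* lost its call in 4 of 15, and *Igkc* kept it in all 15.

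The stage labels were checked on 13 markers. In preB against proB cells 6 were higher, 4 lower and 3 not called, beside 29.0% higher and 29.9% lower of all genes tested. The 4 of lowest p were *Il2ra* (2.18), *Cd2* (2.50) and *Ms4a1* (2.12), which were higher, and *Kit* (-3.11), which was lower. In proB against pre-proB cells 9 were higher and 3, among them *Ptprc* (-1.86), were lower, beside 36.2% and 36.8%. All 8 proliferation genes were higher in proB than in pre-proB cells, beside 36.2% of all genes tested. All 8 were lower in preB than in proB cells, beside 29.9%. Their sums were 1389 to 1521, 6341 to 6549 and 4007 to 4728 CPM in the 3 stages. The part of cell division in the levels above was not tested. In Erg-deficient cells none of the 8 was called, nor any of the 6 plasmacytoid dendritic-like or 6 T-like genes. As 1.16% of all genes tested were called there, the absence of calls in such short lists does not show unchanged levels. Of 6 NK-like genes 3 were higher, beside 0.215% of all genes tested. The NK-like sums were 236 and 348 CPM against 195 and 196 CPM in controls. Of 6 B-like genes 3 were lower in Erg-deficient cells, among them *Ebf1* and *Pax5*, beside 0.946% of all genes tested. The median log2 fold change of the 6 was -3.12. Their median level was 19.4 and 18.9 CPM against 141 and 68.4 CPM in controls, while their sum, of which the pan-leukocyte gene *Ptprc* made up 1323 to 1551 CPM, was 1898 to 1905 CPM against 1925 to 2074 CPM.

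Genes flanking the members were examined to see whether the differences extended over a locus. For each member the 2 nearest tested protein-coding genes on either side were taken, 20 genes in all. In proB against pre-proB cells 14 of the 20 were higher and 3 lower (median log2 fold change 0.69), beside 36.2% and 36.8% of all genes tested, and in preB against pre-proB cells 12 were higher and 6 lower (0.41), beside 36.5% and 34.1%. In preB against proB cells 4 of the 20 were higher and 7 lower, beside 29.0% and 29.9% of all genes tested. *Top3b*, a topoisomerase gene 1.47 kb from *Vpreb1*, fell by 0.28 on the log2 scale (adjusted p = 0.00395), from 127 and 126 CPM to 103 and 105 CPM, beside the fall of 2.33 in *Igll1* and 2.39 in *Vpreb1*. *Fgd4*, on the other side of *Igll1* at 260 kb, fell by 2.84 (adjusted p = 0.00592) at levels of at most 0.720 CPM in proB and preB libraries. *Slc25a1* fell by 1.20 and *Dgcr6* was at 0.23 (adjusted p = 0.124) on either side of *Vpreb2*.

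In Erg-deficient cells edgeR called 0 of the 20 flanking genes, beside 1.16% of the 13005 genes tested. At so low a share, 0 of 20 does not show that the differences stopped at the members. Of the 20, 6 had an unadjusted edgeR p below 0.05, a larger share than the 1624 of all 13005 genes. DESeq2 called 2 of the 20, *Chchd10* beside *Vpreb3* and *Scn4a* beside *Cd79b*, against 400 of the 13005 genes tested, again a larger share. A fit with the replicate number as a block called *Scn4a* alone, against 265 of all genes tested. *Chchd10* measured 29.8 and 14.2 CPM in control and 5.81 and 6.65 CPM in Erg-deficient libraries (-1.83 ± 0.35, edgeR adjusted p = 0.0753). *Scn4a*, 2.98 kb from *Cd79b*, measured 7.13 and 3.22 against 0.938 and 0.517 CPM (-2.83 ± 0.51, adjusted p = 0.0635), a lower log2 fold change than that of *Cd79b*. *Top3b* was at -0.15 (0.568) and *Arhgef1*, 1.13 kb from *Cd79a*, at -0.08 (0.717).

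**Figure D5:**
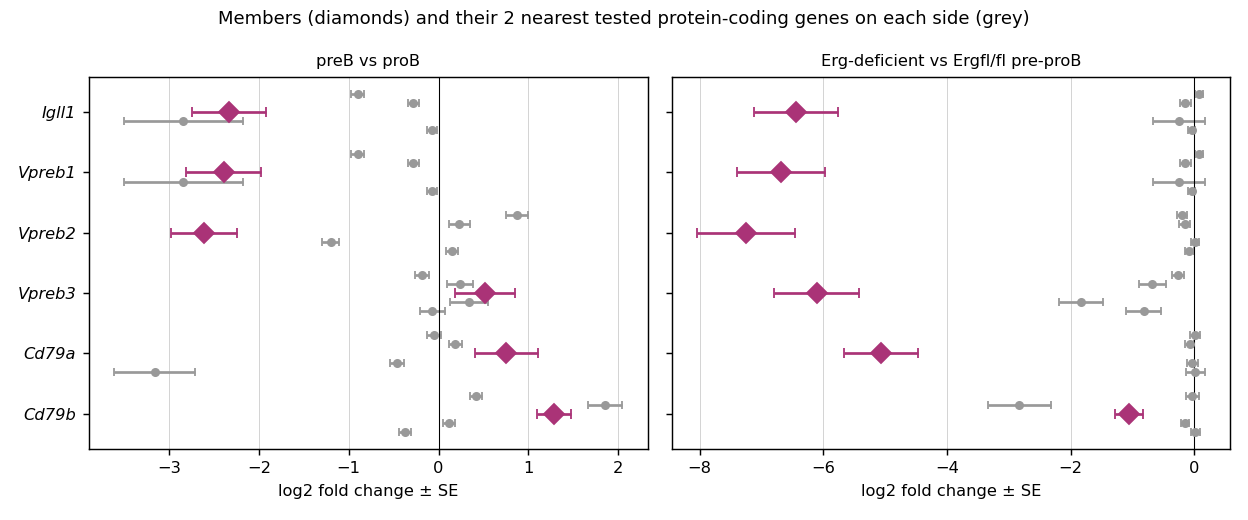
Log2 fold change with its standard error for the 6 genes (diamonds) and the 2 nearest tested protein-coding genes on each side of each (grey points), in preB against proB cells and in Erg-deficient against Ergfl/fl pre-proB cells. In the Erg-deficient panel 5 diamonds lie between -5.06 and -7.25 and all grey points lie between -2.83 and 0.07.

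Finally, likeness of pattern was described over the 8 libraries as Pearson's r of log2 CPM, in which all points share the same libraries and which carries no p. *Igll1* had r = 0.999 with *Vpreb1*, 0.996 with *Vpreb2*, 0.925 with *Vpreb3*, 0.903 with *Cd79a* and 0.695 with *Cd79b*. *Vpreb3* and *Cd79a* had r = 0.997. Among the 13476 genes compared, the 5 most like *Igll1* were *Tmem255a* (0.996), *Raet1e* (0.993), *Tmem91* (0.992), *Gfra2* (0.992) and *Ttll11* (0.992). *Tmem255a* and *Raet1e* were at 0 in both Erg-deficient libraries, and *Raet1e* was at most at 1.85 CPM. Genes that fell in the Erg-deficient libraries can have a high r even where they part elsewhere, as *Igll1* and *Cd79a* did in preB cells.

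*Gfra2*, a receptor gene of the GDNF family, measured 191 and 186 CPM in proB cells, against 46.0 and 15.0 before and 34.4 and 40.5 after that stage, and its Erg-deficient libraries held 0.438 and 0.323 CPM. Genes among the 5 most like *Cd79a* were *Pou2af1* (0.999), *Ighv5-2* (0.998), *Ighv1-78* (0.997) and *Tmc7* (0.996). For *Cd79b* they were *Tifa*, *Nuak1* (0.999), *Slc25a37* (0.998), *Myb* (0.998) and *Rab43* (0.998). *Tifa*, an adaptor gene, had r = 1.00 after rounding and measured 260 and 186 CPM at the pre-proB, 641 and 579 CPM at the proB and 1072 and 1126 CPM at the preB stage, and 132 and 136 CPM in Erg-deficient cells. The lists of *Igll1*, *Cd79a* and *Cd79b* had no gene in common.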

How the data were processed

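Genotype, stage and replicate of the RNA-seq libraries were taken from the labels. The authors sequenced 100-base read pairs, removed adapters with Trim Galore, aligned to mm10 (GRCm38) with STAR, counted reads per Entrez Gene identifier with featureCounts (Rsubread's built-in annotation) and deposited whole-number counts without normalization for 27179 identifiers and 8 libraries. CASAVA 1.8.2 is listed in the submitters' processing notes. The other versions, strand use and the treatment of multi-mapping reads were not found in these sources. Library totals ranged from 15565381 to 18457632 counts, and 3 counts equal 0.154 to 0.194 CPM. Replicates differed by more than sampling noise (chi-square per degree of freedom 3.82 to 8.29).

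CPM with TMM library sizes over 8 libraries, RPKM (CPM per kilobase of RefSeq-linked GENCODE M21 exons) and all tests were computed here. edgeR 4.0.16 in R 4.3.3 (legacy quasi-likelihood F-tests) was fitted to the 6 Ergfl/fl libraries for the stage comparisons and to the 4 pre-proB libraries for genotype. Genes reaching 0.5 CPM in 2 or more libraries were tested, the Benjamini-Hochberg adjustment covered every gene tested, and the threshold was an adjusted p of 0.05; all 6 genes of interest passed the filter in both fits. An exact permutation test of 2 against 2 libraries cannot give a p below 0.333 and was not used. Symbols came from RefSeq for 25275 identifiers and GENCODE for 18; the 1886 without a symbol (0.571% of counts) stayed in the tests. Counting intervals are exact (Clopper-Pearson) at 95% and cover counting error only. The procedure was tested on simulated data.

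The members, gene lists and tests were chosen with earlier results of these data known. Named genes are the 6 members, up to 4 genes of lowest p per list and comparison, *Ebf1*, *Pax5*, *Ighm*, *Igkc* and *Erg* where their list is described, the nearest flanking genes and the 5 most alike genes of *Igll1*, *Cd79a* and *Cd79b*; *Rag1*, *Rag2* and *Ms4a1* were the stage markers of lowest p. Some genes that this rule names are not reported here. Alternatives were DESeq2 size factors or total counts, other filters, DESeq2 1.42.0, limma-voom (limma 3.58.1), edgeR's version 4 method, robust estimation, all 8 libraries together, immunoglobulin genes left out, a replicate block and each library left out. Figures were drawn with matplotlib 3.10.9.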

Additional observations from a re-analysis of the deposited data

How the results depend on the processing

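The call of all 6 genes in proB against pre-proB cells held under each alternative except robust estimation, which called 3 (6 with each library left out). In preB against proB cells 4 genes were called; robust estimation called 2, leaving out a library gave 4 to 6, and the added fit of the 4 libraries compared gave 6. In preB against pre-proB cells 4 were called, with 3 to 6 when a library was left out and 3 with DESeq2, limma-voom or robust estimation; the call of *Vpreb2* was lost in these last 3, without pre-proB replicate 1 and without either preB replicate; without pre-proB replicate 1 the log2 fold changes of *Igll1* (0.58) and *Vpreb1* (0.28) turned positive, against -0.94 and -1.23 without replicate 2. In Erg-deficient against control pre-proB cells 5 were called, 0 with limma-voom, 0 with robust estimation and 0 to 5 with a library left out, while the direction held in every alternative for each of the 6; without a control library *Vpreb2* failed the filter. A library left alone in its group was assumed to vary like the other groups. The cause of these changes was not tested. The number of all genes called in that comparison, 151 as reported, was 41 with limma-voom, 88 with edgeR's version 4 method, 265 with the replicate block, 279 without a filter, 400 with DESeq2 and 442 with all 8 libraries, and from 10 to 401 with a library left out. Of the 20 flanking genes 0 were called there, 2 with DESeq2 and 1 with the replicate block.

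Other values that changed sign lay near 0 and were not called. *Ighm* in Erg-deficient cells was at 7.06e-05 without control replicate 1 and -0.16 without replicate 2. The log2 ratio in proB cells was 0.0578 and -0.0579 for *Cd79a* to *Cd79b* and 0.0365 and -0.0370 for *Vpreb3* to *Igll1*, without replicate 1 and without replicate 2.

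Same-numbered libraries did not deviate together (r = -0.02 to 0.10 between groups), so the replicate numbers were not taken to pair the samples. With the replicate block the 4 comparisons still called 6, 4, 4 and 5 of the 6 genes; *Igll1* was at 2.08, -2.30, -0.22 and -6.35 on the log2 scale. At this depth *Vpreb2*, with 1 and 2 counts in the Erg-deficient libraries, has a counting interval of 0.128% to 1.83% of the control level. That interval leaves out the spread between replicates, and the control libraries alone differed 2.69-fold, so the level is known less well than this.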
